A study of Mus musculus with 7 samples.

Results

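The skeletal myosin heavy chain genes Myh3, Myh2, Myh1, Myh4, Myh8 and Myh13 lie side by side on mouse chromosome 11, and 7 of the 58528 anti-Six4 peaks of the list fell among them. The peaks were taken by position: those with a midpoint between 66870000 and 67200000 of chromosome 11 (build mm9), a window of 330 kb said to run from Myh3 to Myh13. On the whole of chromosome 11 there were 4195 peaks. Six4 was mapped by chromatin immunoprecipitation and sequencing in C2C12, a mouse myoblast line that forms myotubes when serum is lowered. The library used here came from the shNS line, which carries a control hairpin, immunoprecipitated with anti-Six4 after 24 h of differentiation. The other 6 libraries (anti-Six4 in the Six4 knockdown line shSix4, anti-Flag in the line that expresses Flag-Six4, parental cells with anti-Flag or normal rabbit IgG, and input DNA of parental and shNS cells, all at 24 h) were not analysed here. There was no replicate, so no value below measures variation between cultures, and whether a peak depends on Six4 is not known. Whether the shNS line is a clone or a pool is not given in the sources used here. Expression of the myosin genes was not measured.

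Myosin heavy chain is the motor protein of the thick filament, and the isoform a fibre makes sets its contraction speed. In this cluster Myh3 encodes the embryonic and Myh8 the perinatal chain, both made while muscle forms or regenerates. Myh2, Myh1 and Myh4 encode the fast chains of adult type IIa, IIx and IIb fibres, and Myh13 encodes the chain of extraocular muscle. Six4 is a homeodomain protein of the sine oculis family, whose members bind the MEF3 element of muscle promoters and, in adult muscle, act on the fast myosin genes of this cluster. In the RefSeq gene table at hand, of build GRCm38.p6, the order along the chromosome was Sco1, Myh3, the miRNA gene Mir6923, the long non-coding RNA genes 2310065F04Rik and Gm31285, Myh2, Myh1, the antisense RNA gene Myhas, Myh4, Myh8, a tRNA gene and Myh13, with Gas7 the next protein-coding gene. That table was used for names and order only. No annotation of mm9 was used here, so no peak was assigned to a gene, an exon or an intron. The end of the window with the lower coordinates is called its Myh3 end.

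The promoters of the 4 genes Myh2, Myh1, Myh4 and Myh8 shared an AT-rich stretch of 14 bases that no other gene had, which is why these sequences are shown. They come from the RefSeq promoter table of GRCm38.p6 (250 bases before to 50 after each annotated start, plus strand), and their coordinates cannot be set beside those of the mm9 peaks. They lie at chr11:67170845-67170925 (Myh2), chr11:67199877-67199965 (Myh1), chr11:67237616-67237677 (Myh4) and chr11:67277011-67277093 (Myh8). Capitals mark first the 8 bases CAAATTAT and then the shared 14 bases.
Myh2: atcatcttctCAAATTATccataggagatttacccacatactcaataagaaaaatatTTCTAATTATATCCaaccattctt
Myh1: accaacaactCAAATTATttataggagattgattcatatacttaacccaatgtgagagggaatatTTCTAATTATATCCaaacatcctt
Myh4: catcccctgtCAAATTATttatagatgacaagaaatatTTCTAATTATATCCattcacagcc
Myh8: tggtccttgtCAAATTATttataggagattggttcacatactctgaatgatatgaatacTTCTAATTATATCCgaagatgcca

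The 14 bases were the longest stretch common to at least 4 of the 6 promoters. On either strand they occurred in the promoters of 4 of the 27025 genes of the table (0.0148%), and those 4 were Myh2, Myh1, Myh4 and Myh8. In Myh2, Myh1 and Myh4, the adult fast genes, the match extended to 20 bases, which 3 of the 27025 genes had. The stretch was picked because the genes share it, so its rarity elsewhere is a description. The 8 bases CAAATTAT, chosen after the sequences were seen, were present in the same 4 promoters, and in 0.870% of all genes, which is likewise a description. From the first base of one to the first base of the other the distance was 47 bases in Myh2, 55 in Myh1, 28 in Myh4 and 49 in Myh8. Neither stretch was present in the promoters of Myh3 and Myh13, the embryonic and the extraocular gene.

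The MEF3 element, the site through which this family is known to act in muscle promoters, had no letter-for-letter match in these windows. The 9 bases TCAGGTTTC matched 0 of the 6 member promoters and 0.511% of all genes on either strand. Their first 7 bases, TCAGGTT, also matched 0 of the 6, against 4.73% of all genes. With 6 genes and shares this low, 0 matches do not set the members apart from all genes. The MEF2 box, bound by the MEF2 factors of muscle, depended on the letters allowed. Its strict form, with C first and G last, matched 0 of the 6 and 0.636% of all genes. The usual wider form, with C or T first and A or G last, matched 3 of the 6 (Myh1, Myh4 and Myh8) and 3.70% of all genes. In all 3 the match was TTATTTATAG, which overlaps the end of CAAATTAT in the stretches shown above; this form was searched after the sequences were seen. The E-box CANNTG, bound by MyoD and its relatives, was present in 4 of the 6 (Myh3, Myh4, Myh8 and Myh13), against 75% of all genes. The CArG box, bound by serum response factor, was present in Myh4 and Myh13, against 1.81% of all genes. With 6 genes, the counts for the strict MEF2 box and the E-box do not set the members apart either. A match or its absence describes these letters in these windows, and says nothing of binding.

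The 8 bases TATAAAAG, which hold the TATA box letters TATAAA, stood in the promoters of Myh3, Myh2, Myh1 and Myh4, and in 2.01% of all genes on either strand. These 8 bases too were chosen after the sequences were seen, so the difference is a description. TATAAA alone, which can overlap the end of the CAAATTAT stretch on the other strand, matched 5 of the 6 against 15.7% of all genes; Myh13 was without it. The stretches around it are shown with TATAAAAG in capitals, because its place differs between genes. They lie at chr11:67078251-67078298 (Myh3), chr11:67171017-67171064 (Myh2), chr11:67200050-67200097 (Myh1) and chr11:67237761-67237808 (Myh4) of GRCm38.p6, plus strand.
Myh3: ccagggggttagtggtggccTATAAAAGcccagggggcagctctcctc
Myh2: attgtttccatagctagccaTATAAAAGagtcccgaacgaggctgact
Myh1: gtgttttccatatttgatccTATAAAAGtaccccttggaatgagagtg
Myh4: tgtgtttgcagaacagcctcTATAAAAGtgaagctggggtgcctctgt

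Counted from the annotated start as 0, TATAAAAG began at -29 in Myh3, -32 in Myh1 and -31 in Myh4, but at 10, past the start, in Myh2. The distance from the shared 14 bases to TATAAAAG was nonetheless alike in the adult fast genes, 135 bases in Myh2, 128 in Myh1 and 127 in Myh4. In Myh8 the shared bases began at -54 and no TATAAAAG was found in the window. The window ends 50 bases after the start. At the spacing of the adult fast genes a TATAAAAG of Myh8 would lie past that end, where it was not searched for.

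**Figure D1:**
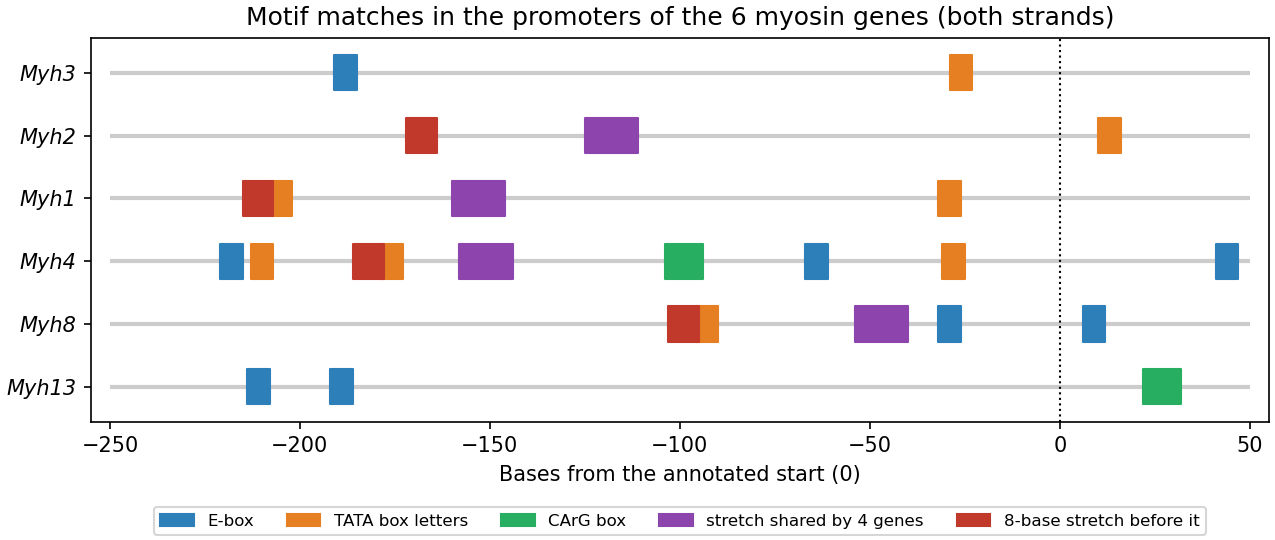
Matches in the promoters of the 6 genes (rows) by distance in bases from the annotated start (0, dotted line); each coloured box is 1 match on either strand. The stretch shared by 4 genes (purple) lies upstream of the TATAAA match nearest the start in Myh2, Myh1 and Myh4, with further TATAAA matches upstream of it in Myh1 and Myh4, and Myh3 and Myh13 are without it.

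The anti-Six4 peaks of the cluster were few, and whether their spread over it was uneven was not tested. The 7 peaks made 21.2 per Mb (exact Poisson 95% interval 8.53 to 43.7, which covers counting error only). The rest of chromosome 11 had 35.4 per Mb, at which 11.7 peaks would fall in a window of this length. The ratio of the densities was 0.600 with an exact interval of 0.241 to 1.24, so a lower density than that of the rest of the chromosome was not detectable with 7 peaks. By position, 4 of the 7 lay in the first 25% of the window, at the Myh3 end. None lay in the next 25%, 1 in the 25% after that, and 2 in the last 25%. Of the 4 at the Myh3 end, 2 lay only 72 bp apart. The split of peaks within other windows was not counted, so this one is a description.

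The 4 peaks of the Myh3 end began with peak 1, at 66888558 to 66888734 of chromosome 11, 18.6 kb from the start of the window. It was 177 bp wide and stood on line 44625 of the list. Peak 2, at 66894526 to 66894763, was 238 bp wide and on line 24261. Peak 3, at 66894836 to 66895120, followed after a gap of 72 bp. With 285 bp it was the widest peak of the window, and it stood on line 18941. On chromosome 11, 10.1% of peaks had a neighbour less than 500 bp away. The share with a gap as short as 72 bp was not counted. Peak 4, at 66915268 to 66915508, lay 45.4 kb from the start of the window and was 241 bp wide. It stood on line 9655 (16.5% of the way down the list), ahead of the other 6.

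A stretch of 175 kb without a peak, 52.9% of the window, separated peak 4 from peak 5. Gaps of this length or longer were 88 of the 4194 gaps between chromosome 11 peaks (2.10%), where the median gap was 12.6 kb. It was picked as the longest gap of the window, and the longest gaps of other windows were not compared. The 2.10% therefore does not show the stretch to be unusual. Of the 359 windows of 330 kb on chromosome 11, 33 held no peak. Peak 5 stood alone at 67090173 to 67090337, 220 kb from the start of the window, on line 41028. After a further 81.3 kb came peak 6, at 67171675 to 67171922, 248 bp wide and on line 40199. Peak 7, at 67178351 to 67178515, was on line 57214, 97.8% of the way down the list. Peaks 5 and 7 both had a width of 165 bp, the smallest in the list. That width was found in 2 of the 7 peaks (exact 95% interval 3.67 to 71.0%). It was found in 3.79% of chromosome 11 peaks and 5.08% of the whole list, both within that interval.

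**Figure D2:**
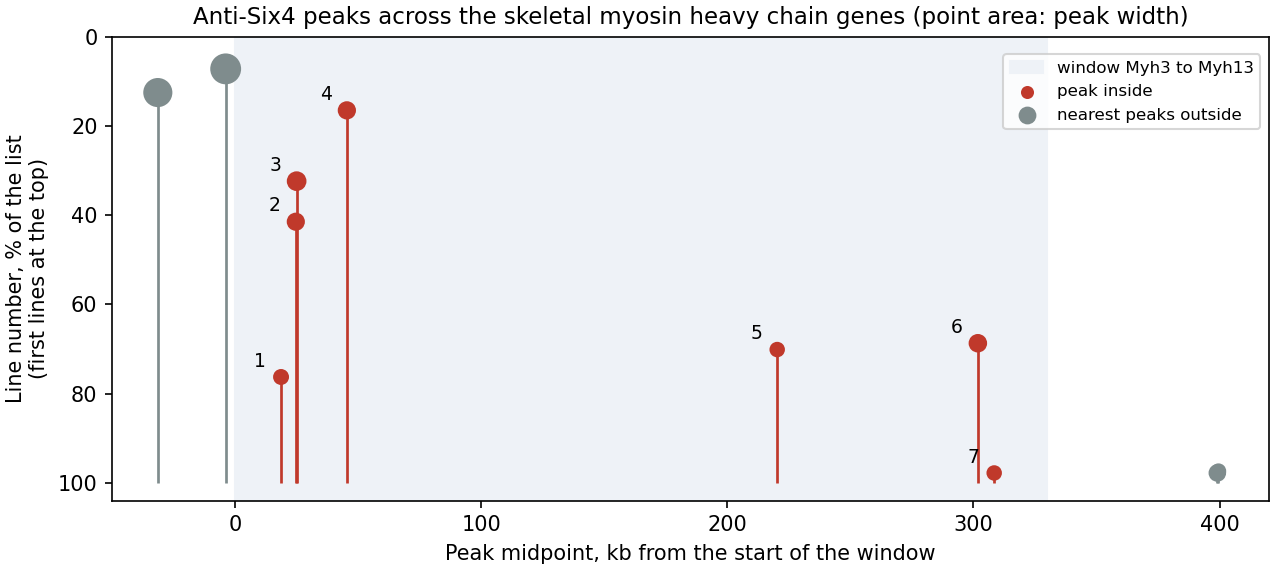
The 7 peaks of the myosin window (red, numbered) and the nearest 2 on either side (grey) by distance of the midpoint from the start of the window in kb (x axis) and by line number as a percent of the list (y axis, first lines at the top); point area is proportional to width. Peaks 1 to 4 gather within 45.4 kb of the start of the window, and the peak nearest to the top lies just outside it.

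The edges of the window matter to what is counted. The nearest peak before it, at 66865764 to 66866526, had its midpoint 3.86 kb outside. It was 763 bp wide and on line 4213, wider than all 7 peaks inside and earlier in the list than any of them. The peak before that, at 66838236 to 66838908, was 673 bp wide and on line 7319. On the Myh13 side the nearest peak outside, at 67268997 to 67269216, was 69.1 kb past the edge, 220 bp wide and on line 57215. The members nearest to the edges were peak 1, 18.6 kb inside, and peak 7, 21.6 kb inside.

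Set among equal windows, the myosin window held fewer peaks than the median window of chromosome 11 but lay within the quartiles. Of 359 windows of 330 kb laid end to end from it in both directions, 232 held 7 or more peaks and 141 (39.3%) held 7 or fewer. The median window held 12 peaks, with quartiles of 2 and 19, the fullest held 34, and 33 held none. The window just before the myosin genes held 5 peaks and the window just after them 8. Further on the number rose to 17 and 26 in the next windows past Myh13, against 5 and 3 in the next windows before Myh3. By length covered the myosin window was lower, with 1519 bp under peaks (0.460% of it), against a median of 3926 bp per window. As little or less was covered in 118 of the 359 windows (32.9%).

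The peaks among the myosin genes were all narrow. Their median width was 238 bp (quartiles 171 and 244.5 bp, n = 7), against 305 bp on chromosome 11 and 275 bp in the whole list. All 7 were no wider than the chromosome's median, as were 50.2% of chromosome 11 peaks. The lack of any wider peak among them was singled out after its value was seen. Of the 251 windows with 5 or more peaks, 4 had no peak wider than 285 bp, the myosin window included. All 4 were among the 56 windows with 5 to 9 peaks (7.14% of them), and 1 of them was the adjoining window past Myh13, with 8 peaks and a widest of 263 bp. Windows with few peaks also had narrower ones. Among the 56 windows with 5 to 9 peaks, the median of the widest peaks was 648 bp, and the median of the median widths was 227 bp, under that of the myosin window.

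No peak among the myosin genes was 1 kb or wider, against 8.22% of chromosome 11 peaks. With 0 of 7, a share of up to 42.9% is allowed by the limit of 3 counts, and the exact Clopper-Pearson 95% interval reaches 41.0%, so the count is too small to set the cluster apart. Such a lack was also common, at 45 of the 56 windows with 5 to 9 peaks. The largest run of peaks with gaps of up to 5 kb had 2 members, peaks 2 and 3.

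**Figure D3:**
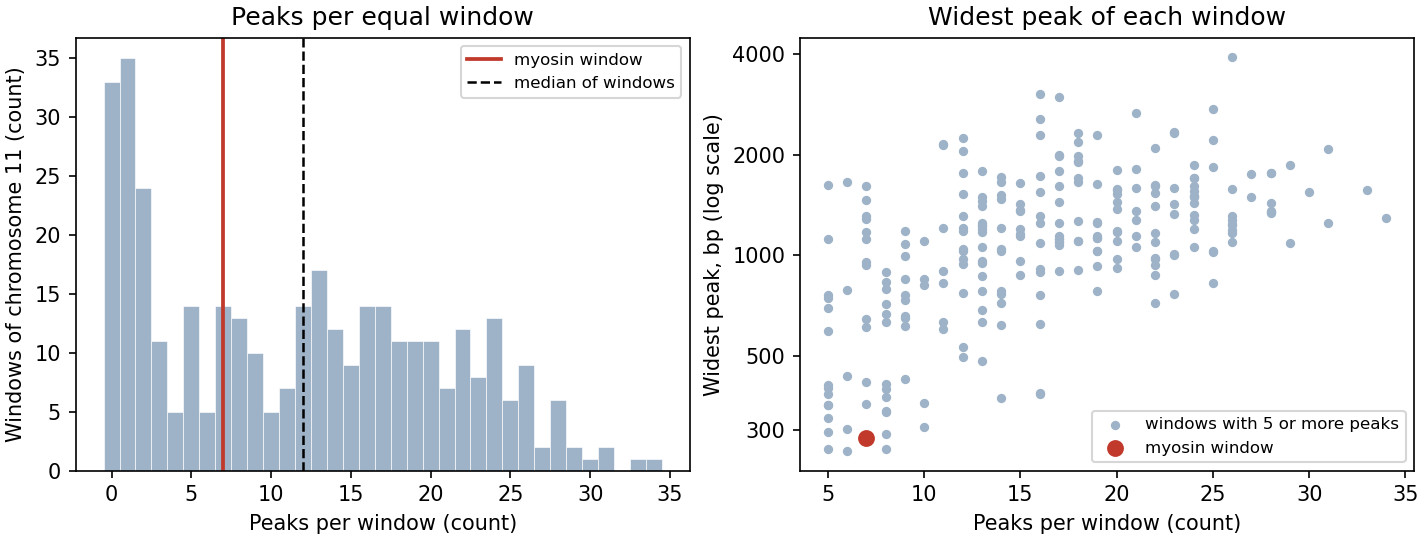
Left, number of peaks in each of the 359 windows of 330 kb on chromosome 11 (bars, windows per count), with the myosin window at 7 (red line) and the median at 12 (dashed line). Right, the widest peak (bp, log scale) against the number of peaks in the 251 windows with 5 or more, with the myosin window (red) at 285 bp near the bottom.

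The median place of the peaks in the list was later than that of chromosome 11, but it depended on the edges of the window. The list has no score, and the quantity it was ordered by is not given in the sources used here. Median line number was 40199 in the window, 68.7% of the way down the list, against 41.5% for chromosome 11. The quartiles were 36.9 and 73.2% in the window, and 20.1 and 69.2% on chromosome 11. With the edges moved by 20 kb, either outward or inward, the median of the window was 55.1%. Among the 251 windows with 5 or more peaks, 38 (15.1%) had a median as late or later. Among the 56 with 5 to 9 peaks, 25 did. None of the 7 was in the first 10% of lines, against 12.8% of chromosome 11 peaks, a count whose exact interval again reaches 41.0%. The same held for 40 of the 56 windows with 5 to 9 peaks. In the first 50% of lines were 3 of the 7 (peaks 2, 3 and 4, all at the Myh3 end), or 42.9% (exact interval 9.90 to 81.6%), against 57.6% on chromosome 11.

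The lines of the list fell into 2016 blocks, within each of which the peaks were in ascending genome order, and the blocks of 100 peaks or more held 72.2% of the list. Differences in line number within a block therefore follow position on the genome. Whether the peaks of a block are tied in the value that ordered the list is not known, and a short block, such as the 8 lines that hold peak 6, may be an ascending run without ties. Peak 5 lay in the largest block, of 2963 peaks (lines 40587 to 43549). Peak 7 and the nearest peak outside the window past Myh13 stood on consecutive lines of a block of 624. Peaks 2 and 3, which are neighbours on the genome, lay in separate blocks, of 1727 peaks (lines 24006 to 25732) and 1184 peaks (lines 18765 to 19948). No 2 of the 7 shared a block.

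Compared with other peaks of their own block, most of the 7 were on the narrow side. Peak 4, the earliest, was in a block of 380 peaks (lines 9611 to 9990) with a median width of 428.5 bp, and 10.0% of that block was as narrow as or narrower than its 241 bp. For peak 5 that share was 10.5%, for peak 1 it was 15.1% and for peak 7 it was 26.8%. For peaks 2, 3 and 6 it was 39.3%, 45.9% and 50%. All 7 were narrower than the median of their block, though for peak 6 that block had only 8 peaks. How many other peaks of chromosome 11, or of windows with about as many peaks, were narrower than their block median was not counted. The count for the 7 is therefore a description and does not set them apart.

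**Figure D4:**
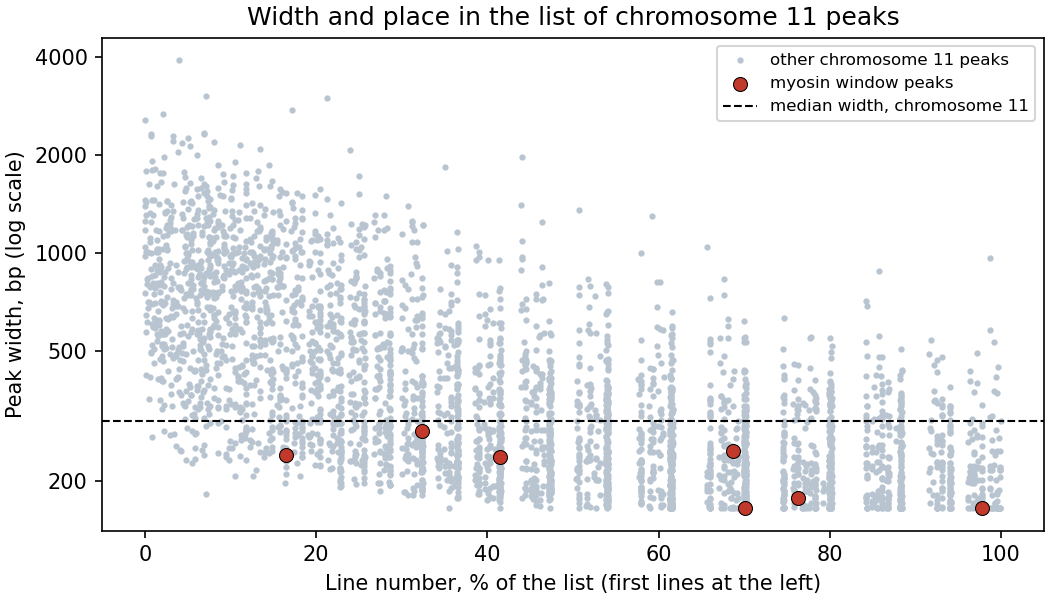
Width (bp, log scale) of each chromosome 11 peak against its line number as a percent of the list; the 7 peaks of the myosin window are red and the dashed line is the median width of chromosome 11, 305 bp. All 7 lie under the dashed line, and the vertical bands are blocks of lines in genome order.

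The cluster spans an edge between whole megabases. The megabase from 66 to 67 Mb had 15 peaks, 4 of them in the myosin window, and the one from 67 to 68 Mb had 36, 3 of them in the window, against a median of 34 over 117 whole megabases of chromosome 11.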

How the data were processed

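The authors deposited 1 peak list for anti-Six4 in shNS cells, with 3 columns (chromosome, start and end in bp). Per the submitters' processing notes Bowtie, Picard, bedtools and MACS2 2.0 were used with build mm9; the sources used here name no roles, control library or threshold. Read depth is unknown. Against the GRCm38 gene table, the last peak of chromosome 7 lay 7.19 Mb past the last gene. Peaks were counted by midpoint, starts are printed from 1, and comparison windows lay wholly between the first and last peak of the chromosome, assembly gaps included. Blocks were found by splitting the list wherever genome order (chromosome names as text) fell back. Promoter motifs were searched on both strands. All 6 members and 7 of 8 other myosin heavy chain genes matched the promoter table. The comparison of proteins was not run. The members, motifs and named features were chosen with earlier results of these data known; the blocks, the shared stretches, the 8-base stretches and the classes of windows by number of peaks were chosen after seeing the files. No test was made, because 1 library gives no replicate. The counting of densities, the merging and the blocks were checked on simulated data. Scripts ran in Python 3.11.15 (scipy 1.17.1, numpy 2.4.6, matplotlib 3.10.9, pandas 2.3.3).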

Additional observations from a re-analysis of the deposited data

How the results depend on the processing

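Of 57 recomputed values, 46 stayed within set limits and 11 moved. The limits were 1.5 times for numbers and lengths, the exact interval for shares and ratios, and the range of the 7 peaks for medians. With 7 peaks these limits are wide, except for the share of windows, whose interval over 359 windows was 59.4 to 69.6%. Some values could not have moved. The E-box, strict MEF2 and CArG letters read alike on both strands, and MEF3, absent on both, is absent on either alone. Fewer lines or a narrower window could not add a peak of 1 kb. The 46 therefore do not measure how stable the results are. In the first 50% of lines 3 peaks with 764 bp were left, and 59.3% of chromosome 11 windows held as many or more, against 64.6% for the whole list. In the first 10% of lines 0 peaks were left, so the covered length and the density ratio were 0 and 100% of windows held as many or more; widths had no value there. Widening the window by 20 kb at each end added the peak just before it and raised the covered length to 2282 bp. It also brought the median line from 68.7% to 55.1%, as did narrowing by 20 kb. The share of windows with 7 or more peaks was 71.2% among windows with a peak and 44.7% among windows of all autosomes, so the myosin window was fuller than the typical autosomal window and emptier than the typical one of chromosome 11. The wider form of the MEF2 box matched 3 of the 6 promoters, the strict form 0. That form, ranking by the middle line of each block and a shifted grid of windows were added after seeing the data. No paired analysis was possible because each group has 1 library.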

Other observations

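The promoters of other myosin heavy chain genes, outside the cluster, were searched for the same letters. Of the 7 with a promoter in the table (Myh6, Myh7, Myh7b, Myh9, Myh10, Myh14 and Myh15, which encode cardiac, slow, nonmuscle and further chains), 0 had the shared 14 bases, CAAATTAT or TATAAAAG, which 0.0148%, 0.870% and 2.01% of all genes had. An E-box was present in 7 of the 7, against 75% of all genes, and TATAAA in 3 (Myh6, Myh9 and Myh15), against 15.7%. With 7 genes these counts do not set the list apart from all genes. The GC content of the member promoters was 38.0% in Myh1, 42.3% in Myh2, 43.0% in Myh4, 44.7% in Myh8, 48.0% in Myh3 and 53.0% in Myh13, against a median of 52.7% over all promoters. The 4 promoters with the shared stretch were thus the 4 lowest in GC of the 6. That stretch is itself AT-rich and its bases are counted in the GC content, so the 2 observations are not independent.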
